A study of Mus musculus with 4 samples.

Results

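The stretch described here runs over the Jα array, Trac and Dad1 at the distal end of the Tcra/Tcrd locus of the mouse, which encodes T cell receptor chains. It holds the 41 HindIII fragments of chromosome 14 (build mm9) with a midpoint between 54773312 and 54880000, out of 26314 fragments of that chromosome listed in any library. The fragments lie end to end over 106 kb, from 54773318 to 54879192, and are numbered here from 1, beside TEA, to 41. The rule that selects them uses position and no measured value. A boundary at 54.835 Mb divides them into 24 fragments of the Jα array (58.6 kb) and 17 fragments of Trac, the Tcra enhancer and Dad1 (47.0 kb), placed by their midpoints, and fragment 25 crosses the boundary. That boundary is approximate, because no gene annotation of mm9 was used here, so no single fragment is assigned to a gene.

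Contacts were read by 4C-seq, in which crosslinked chromatin is cut, religated and amplified by inverse PCR from 1 chosen fragment, the viewpoint, so that the other reads name the fragments ligated to it. One group was thymocytes labelled DN from litters of Rag2-/- C57BL/6 mice of 3 weeks, which cannot cut their antigen receptor genes and so keep the locus unrearranged. The other was naive B cells from the spleen of wild-type C57BL/6 mice (B), whose age and isolation are not given in the sources used here. With 2 samples per group and 4 viewpoints per sample there were 16 libraries. Genotype, tissue and cell type differ together between the groups, and the DN material was pooled over litters. INT1 and INT2, which the labels do not define, lie 95.7 and 89.4 kb below the stretch. Ed, the Tcrd enhancer, lies 8.14 kb below it, and TEA, a germline promoter at the start of the Jα array, directly adjoins it.

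The Jα segments are the acceptors for Vα segments when T cells assemble the alpha chain, and Trac encodes the constant part to which a completed segment is spliced. The Tcra enhancer, between Trac and Dad1, is known for driving germline transcription from TEA over the Jα array in thymocytes. Dad1 encodes a subunit of the oligosaccharyltransferase complex and is expressed in many tissues. In the RefSeq annotation of another build, GRCm38.p6, 60 Traj genes stand in a row from Traj61 to Traj1, 9 of them pseudogenes. Traj61 is the one nearest to Trdc and Traj1 the one next to Trac. Trac is followed by Dad1, and Dad1 by Abhd4.

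Of the 3 names Traj61, Trac and Dad1, 1 had an entry among the RefSeq promoters. The 250 bases before the start of Dad1 are shown because Dad1 closes the stretch and because a fragment can be told apart by this assay only where HindIII cuts. The window is chr14:54253930-54254179 of GRCm38.p6, on the minus strand and written 5′ to 3′, and its position does not carry over to mm9.
Dad1: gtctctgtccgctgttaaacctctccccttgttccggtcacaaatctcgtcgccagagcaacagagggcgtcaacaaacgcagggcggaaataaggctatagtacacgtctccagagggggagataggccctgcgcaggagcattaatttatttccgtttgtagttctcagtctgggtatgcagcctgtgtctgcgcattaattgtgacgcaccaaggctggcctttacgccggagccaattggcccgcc
The site of HindIII (AAGCTT, the same on both strands) had 0 matches in the 300 bases around this start, against 7.45% of all 32851 promoter windows with at least 1. The site of DpnII, the second enzyme of the assay (GATC, also the same on both strands), had 0 matches as well, against 48.0% of promoter windows with at least 1. No base is in capitals, since neither site occurs.

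Libraries held 1220738 to 17287420 mapped reads, of which 169129 to 2851909 lay on chromosome 14 after the viewpoint and its nearest neighbour on either side were left out. Values are given as RPM of chromosome 14, those reads scaled to a fixed total per library (RPM is the usual scaled read count), or as their percentage. The smallest of these libraries puts a floor of 3 reads at 17.7 RPM of chromosome 14. Reads within 1 Mb of the viewpoint were 63.1% to 77.1% of chromosome 14 reads in DN and 21.7% to 40.9% in B. Most nearby fragments therefore had a larger share in DN, and counts under the main settings are set beside their value over all fragments or windows within 1 Mb. Whether this difference in the reads near the viewpoint contributes to the values of the stretch was not tested beyond the other library sizes given. The libraries came from 3 sequencing folders, of which 0 held both cell types, so folder and cell type cannot be told apart. Nothing in the labels says that replicates came from separate litters, so p-values measure the spread between samples, and the 4 viewpoints share the same 4 samples.

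From INT1 the Jα segment took 2.91% and 5.05% of chromosome 14 reads in DN and 1.16% and 0.866% in B, or 3.98% ± 1.51 against 1.01% ± 0.208 (SD, n = 2), a ratio of 3.93. From INT2 it took 6.80% and 4.39% in DN and 1.57% and 1.30% in B, or 5.59% ± 1.71 against 1.43% ± 0.192, a ratio of 3.90. TEA, at the edge of the array, gave 2.43% and 2.54% in DN and 1.29% and 1.22% in B without the adjoining fragment 1, or 2.48% ± 0.0762 against 1.26% ± 0.050, a ratio of 1.97. The DN libraries were the higher pair from these 3 viewpoints. From Ed the order was the opposite. The Jα segment took 1.88% and 1.29% in DN and 2.26% and 2.13% in B, or 1.59% ± 0.420 against 2.19% ± 0.0900, a ratio of 0.724, with both DN libraries below both B libraries.

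As shares of chromosome 14 reads, the Trac to Dad1 segment was higher in DN from every one of the 4 viewpoints. From INT1 it took 3.03% and 4.23% in DN and 1.01% and 1.20% in B, a ratio of 3.29, and from INT2 3.74% and 3.98% in DN and 1.02% and 1.49% in B, a ratio of 3.08. From TEA it took 2.30% and 3.11% in DN and 0.627% and 0.664% in B, a ratio of 4.19. From Ed it took 1.42% and 2.04% in DN and 0.454% and 0.243% in B, a ratio of 4.97. The means ± SD (n = 2) were 3.63% ± 0.848 and 1.11% ± 0.132 from INT1, 3.86% ± 0.169 and 1.25% ± 0.334 from INT2, 2.70% ± 0.569 and 0.646% ± 0.0260 from TEA, and 1.73% ± 0.432 and 0.349% ± 0.149 from Ed, in DN and B in that order. For each of the 8 segment values, the two-sided exact permutation test gave p = 0.333, the smallest that 2 samples against 2 can give, so none can pass 0.05. With library size taken within 1 Mb, the log2 ratio of the Trac to Dad1 segment was 0.90 from INT1, 0.22 from INT2, 0.42 from TEA and 1.57 from Ed, against 1.72, 1.62, 2.07 and 2.31 for the shares of chromosome 14. In the same setting the Jα segment from TEA turned to a log2 ratio of -0.65, and after subtracting the read density of the other chromosomes to -0.18. The Jα segment from Ed turned to 0.47 with all mapped reads as library size and to 0.32 with fragments capped at the 95th percentile, and without its highest fragment it was -0.12 against -0.47.

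**Figure D1:**
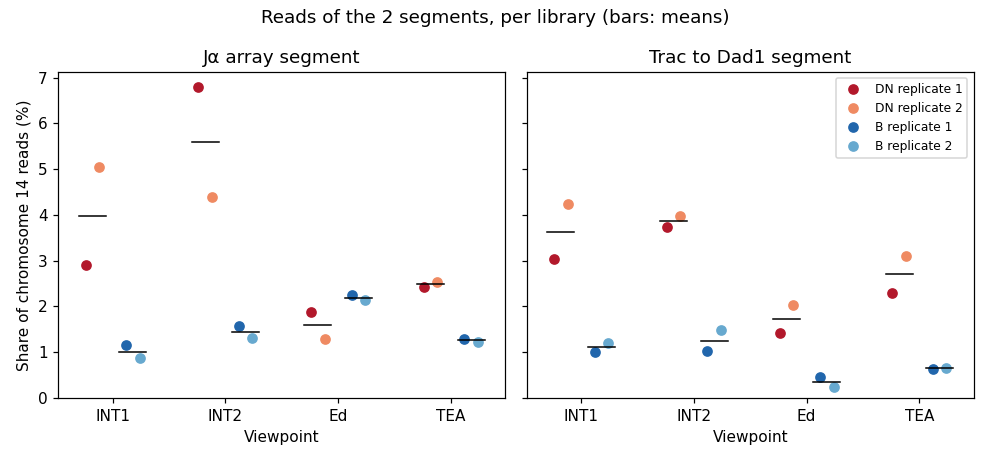
Share of chromosome 14 reads (%, vertical axis) on the Jα array segment (left) and the Trac to Dad1 segment (right), from the 4 viewpoints, with 1 point per library and a bar at the mean of each cell type. From Ed the B libraries lie above the DN libraries on the Jα segment (2.26% and 2.13% against 1.88% and 1.29%) and below them on the Trac to Dad1 segment (0.454% and 0.243% against 1.42% and 2.04%).

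The division of the stretch's own reads between its segments does not depend on the library size. From Ed, 43.1% and 61.2% of the reads of the stretch lay in the Trac to Dad1 segment in DN, and 16.7% and 10.3% in B, a difference of 38.6 points (52.1% ± 12.8 against 13.5% ± 4.58, SD, n = 2). From TEA, 48.7% and 55.1% lay there in DN and 32.7% and 35.2% in B, a difference of 17.9 points (51.9% ± 4.52 against 33.9% ± 1.79). For both, the DN libraries lay above the B libraries (two-sided exact permutation test, p = 0.333, the smallest possible). From INT1 the values were 51.0% and 45.6% in DN and 46.6% and 58.0% in B, and from INT2 35.5% and 47.6% in DN and 39.3% and 53.4% in B. The cell types overlapped from both of these distant viewpoints, with differences of -3.99 and -4.81 points (exact permutation p = 0.667 for each). For comparison, the segment makes up 44.5% of the length of the stretch, or 46.4% without fragment 1.

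The TEA difference depended on where the boundary stood, at 10.8 points with the boundary 10 kb lower and 5.93 points with it 10 kb higher. With each captured fragment counted once, whatever its reads, the difference was 4.40 points from Ed and -0.61 from TEA.

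**Figure D2:**
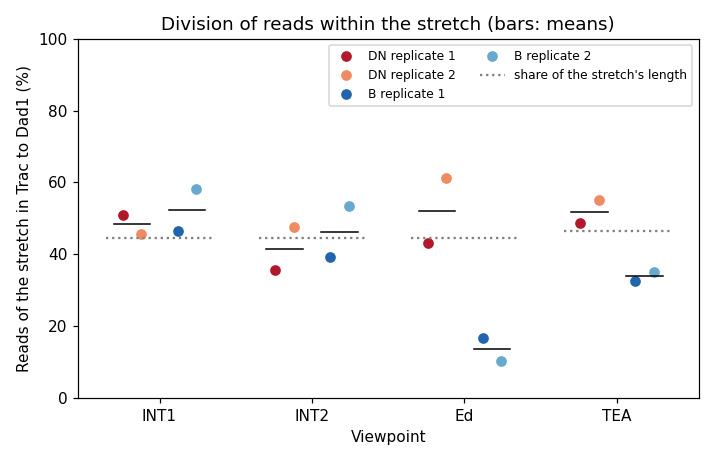
Percentage of the reads of the stretch that lay in the Trac to Dad1 segment (vertical axis), by viewpoint, with 1 point per library, a bar at each mean and a dotted line at the segment's share of the length. The cell types stand apart from Ed (43.1% and 61.2% in DN, 16.7% and 10.3% in B) and from TEA (48.7% and 55.1% against 32.7% and 35.2%), and overlap from INT1 and INT2.

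Within the Jα array, fragment 6 (chr14:54783906-54793249, 9344 bp) was among the 3 highest of the segment from each of the 4 viewpoints. From Ed it held 6930 and 4053 RPM of chromosome 14 in DN and 10831 and 10457 in B, a ratio of 0.516. From INT1 it held 4213 and 5281 in DN and 1453 and 2218 in B, a ratio of 2.59, and from INT2 6155 and 3948 in DN and 3659 and 2547 in B, a ratio of 1.63. From TEA the cell types overlapped on it, at 3828 and 1969 in DN and 2118 and 2894 in B. The order at fragment 6 depended on the library size: from INT2 the log2 change was 0.69, and it turned to -0.71 with library size within 1 Mb and -0.46 with TMM factors. From TEA it turned from 0.15 to -1.49 and -1.35 under the same settings, and from Ed it was -1.01, and -0.05 with all mapped reads.

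Fragment 8 (chr14:54796280-54805545, 9266 bp) had the same order from Ed as fragment 6, with 1591 and 1029 RPM of chromosome 14 in DN and 2729 and 3573 in B, a ratio of 0.416. From INT1 fragment 8 held 3593 and 4387 in DN and 1885 and 817 in B, a ratio of 2.95. Fragments 6 and 8 were the 2 fragments of the stretch from Ed with both DN libraries below both B libraries. Neither difference passed the fit across all fragments (limma log2 change -1.01, SE 0.71, adjusted p 0.548 for fragment 6, and -1.29, SE 1.08, adjusted p 0.589 for fragment 8).

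Fragment 1 (chr14:54773318-54777677), which adjoins TEA, was the highest fragment of the Jα segment from INT2. It held 27320 and 9040 RPM of chromosome 14 in DN and 2804 and 2722 in B, a ratio of 6.58 (limma log2 change 2.51, SE 0.62, adjusted p 0.119). It made up 40.2% and 20.6% of the segment's reads in DN and 17.9% and 21.0% in B, and without it the log2 ratio of the segment was 1.70. DN replicate 1 stood well above DN replicate 2, and both lay above B. From Ed fragment 1 held 4825 and 4411 in DN and 6513 and 4794 in B, which overlapped. Among the other leading fragments of the array, fragment 5 from INT2 held 5255 and 1896 in DN and 834 and 458 in B, and fragment 4 from TEA 3659 and 2212 in DN and 875 and 735 in B. Fragment 17 (chr14:54815779-54822924, 7146 bp) held 4142 and 2900 in DN and 2876 and 1298 in B from INT1, and 2301 and 2909 against 1124 and 2145 from TEA, and its log2 change turned negative with TMM factors from both (-0.37 and -0.77).

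**Figure D3:**
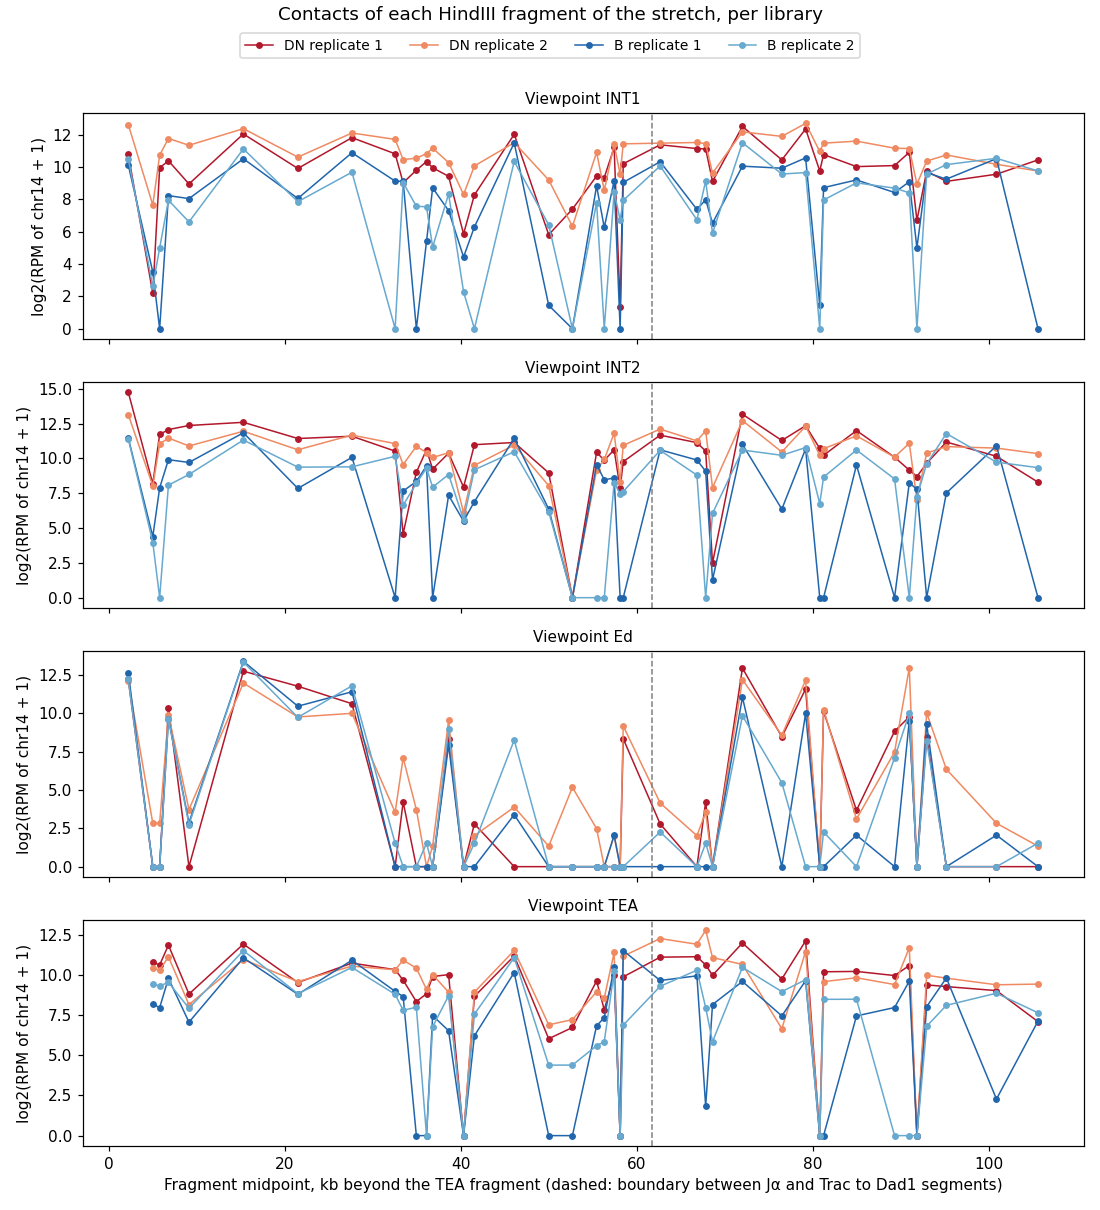
Value of each fragment of the stretch in every library, as log2(RPM of chromosome 14 + 1), against the distance of its midpoint from the TEA fragment in kb, with 1 panel per viewpoint, 1 line per library, and the segment boundary dashed. From Ed the B points stand above the DN points at fragment 6, which held 10831 and 10457 RPM in B and 6930 and 4053 in DN, and at fragment 8, and below them at fragments 29 and 31.

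On the Trac to Dad1 side, fragment 29 (chr14:54841960-54848613, 6654 bp) had the highest mean of its segment over the 4 libraries from INT1, INT2 and Ed, although in DN alone fragment 31 was higher from INT1 and in B alone fragment 39 was higher from INT2. From INT2 it held 9205 and 6692 RPM of chromosome 14 in DN and 2048 and 1549 in B, a ratio of 4.42. From Ed it held 7953 and 4717 in DN and 2126 and 924 in B, a ratio of 4.15, and from INT1 5809 and 4608 in DN and 1058 and 2893 in B, a ratio of 2.64. From TEA it held 4019.9 and 1593 in DN and 766 and 1403 in B. Neither B library reached the lower DN library at this fragment from any of the 4 viewpoints.

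Fragment 31 (chr14:54850911-54854021, 3111 bp) was among the 3 highest of the segment from all 4 viewpoints. It held 5206 and 6625 RPM of chromosome 14 in DN and 1510.1 and 804 in B from INT1, a ratio of 5.11, and 5195 and 5076 against 1636 and 1752 from INT2, a ratio of 3.03. From TEA it held 4404 and 2781 in DN and 792 and 827 in B, a ratio of 4.44. From Ed it held 3086 and 4601 in DN and 1027 in B replicate 1, and was not read in B replicate 2. DN exceeded B at fragment 31 from every viewpoint without overlap. In limma the adjusted p was 0.0697 from INT1 (log2 change 2.41, SE 0.45), 0.0844 from INT2 (1.60, SE 0.34), 0.0981 from TEA (2.11, SE 0.47) and 0.415 from Ed (6.88, SE 3.30), so it did not pass.

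Fragment 27 (chr14:54840407-54841811), on the boundary side of fragment 29, was among the highest from TEA. It held 1564 and 6942 RPM of chromosome 14 in DN and 2.56 and 247 in B, with the replicates of both cell types far apart (limma log2 change 6.80, SE 2.52, adjusted p 0.210). From INT1 it held 2215 and 2784 in DN and 251 and 562 in B. Fragment 25 (chr14:54832056-54839817), which crosses the boundary, held 2180.1 and 4869 in DN and 798 and 621 in B from TEA, a ratio of 4.97. It held 2645 and 2838 against 1279.9 and 1067 from INT1, and 3247 and 4386 against 1565 and 1523 from INT2, ratios of 2.34 and 2.47. From INT2 its log2 change of 1.29 turned to -0.12 with library size within 1 Mb, and from INT1 it was 1.23 and became 0.02 with TMM factors. From Ed, fragment 25 was close to the floor, at 5.91 and 16.8 in DN and 0 and 3.79 in B. Fragment 36 (chr14:54863546-54864948) stood high from Ed in 1 library, with 881 and 8089 in DN and 742 and 1022 in B, so the cell types overlapped.

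Toward the far end of the stretch, fragment 40 (chr14:54869760-54878549) was the 1 fragment from INT1 with both DN libraries below both B libraries, at 749 and 1147 RPM of chromosome 14 in DN and 1462 and 1482 in B. This fragment and those named in the next 3 sentences were chosen after their values were seen. Fragment 12 from TEA held 452 and 543 in DN and was at 0 in both B libraries, at least 157-fold higher in DN against a floor of 3 reads per library. Fragment 24 from Ed held 325 and 581 in DN and was at 0 in B, at least 59.8-fold higher, and fragment 33 from Ed held 1129 and 1224 in DN against 2 reads in B. Fragment 32, of 91 bp, had 3935 reads in DN and 1 in B from INT1. With reads pooled over the libraries of a cell type and scaled to their chromosome 14 reads, its ratio was 1728. The 95% exact interval of that pooled ratio was 310.02 to 68282. Without molecular identifiers PCR copies cannot be told from molecules, so these floors and intervals cover counting error only. Where other viewpoints read these fragments, the ratios were smaller. Fragment 12 had a ratio of 13.7 from INT1 and 2.22 from INT2, with 703 and 624 in B from INT2. Fragment 24 had 5.10 from INT1 and 14.5 from INT2, and from TEA the cell types overlapped, with 2894 and 116 in B. Fragment 32 had 26.8 from INT2, and fragment 33 had 6.85 from INT1, 7.08 from INT2 and 5.44 from TEA.

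In the fit across all fragments within 1 Mb of a viewpoint, 0 fragments of the stretch passed an adjusted p of 0.05 (limma, Benjamini-Hochberg, two-sided), and 0% of the 528, 506, 231 and 467 fragments tested from INT1, INT2, Ed and TEA did so in either direction. At an unadjusted p under 0.05 there were 18 of 41 fragments of the stretch from INT1, 10 of 40 from INT2, 2 of 17 from Ed and 7 of 36 from TEA, against 32.4%, 24.7%, 13.9% and 26.1% of all fragments tested. With edgeR's quasi-likelihood test on recovered reads, 0 fragments of the stretch passed from INT1, INT2 or Ed. Over all fragments tested, 0 of 528, 0 of 506 and 3 of 231 passed from these viewpoints. The fragments not tested from INT2 and TEA, 1 and 4, were at 0 in every library. From Ed 24 of 41 had a mean under 20 RPM of chromosome 14. The median log2 change over the tested fragments of the stretch was 2.41 from INT1, 2.38 from INT2 and 1.88 from TEA, against 2.63, 2.47 and 2.43 over all fragments tested. From Ed it was 1.61 over the 17 of 41 that passed the filter on low values, against 2.79 over all fragments tested.

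Whether both DN libraries exceeded both B libraries was counted without a test. They did so at 34 of 41 fragments from INT1 (54.2% of all fragments within 1 Mb), 32 of 41 from INT2 (41.2%), 29 of 40 from TEA (52%) and 12 of 41 from Ed (30.3%). The percentages in this paragraph are over fragments listed in at least 1 library of the viewpoint. The counts of the stretch also include fragments at 0 in every library, 1 from INT2, 4 from TEA and 6 from Ed. The share was above that of all nearby fragments from INT1, INT2 and TEA, and near it from Ed. The fragments compared were not matched for distance from the viewpoint or for read level. From Ed the 12 were divided into 4 of 24 in the Jα segment and 8 of 17 in the Trac to Dad1 segment. Among the 12, few reads stood behind 4: the DN libraries together had 3 at fragment 16, 12 at fragment 25, 10 at fragment 27 and 7 at fragment 34, and the B libraries 1, 2, 1 and 1. The opposite order was found at 1 fragment from INT1 (8.95% of all fragments), 2 from Ed (3.73%), 0 from INT2 (8.94%) and 0 from TEA (4.03%).

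Sums over 10 kb windows average over the capture of single fragments where they hold more than 1, and 10 windows lay wholly in the stretch. Fragments were placed by midpoint, so fragments 1 to 3 were in none of the 10. The window starting at 54.79 Mb held fragment 7 alone. From INT1, 6 of the 10 rose in DN, against 24.5% of all 192 windows within 1 Mb, and 0 were lower, against 2.08%. The window at 54.85 to 54.86 Mb, with fragments 31 to 34, held 0.885% and 1.45% of chromosome 14 reads in DN and 0.252% and 0.157% in B, 5.71-fold higher (limma log2 change 2.51, SE 0.43, adjusted p 0.00889). The window at 54.84 to 54.85 Mb, with fragments 26 to 30, held 1.22% and 1.49% in DN and 0.253% and 0.437% in B, 4.05-fold higher (2.02, SE 0.40, adjusted p 0.0129). The other 4 windows started at 54.78, 54.80, 54.82 and 54.83 Mb and were 3.64-fold, 4.39-fold, 5.33-fold and 3.65-fold higher (limma adjusted p 0.0239, 0.0151, 0.0425 and 0.0180). None of the 6 had a B library reaching a DN library. The last window, at 54.87 to 54.88 Mb, had a log2 change of 0.16 (SE 0.47, adjusted p 0.791).

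From INT2, 1 of the 10 windows rose, against 4.66% of all 193, and it was again the window at 54.84 to 54.85 Mb. It held 1.54% and 1.48% of chromosome 14 reads in DN and 0.361% and 0.325% in B, 4.41-fold higher (limma log2 change 2.14, SE 0.39, adjusted p 0.0493). The edgeR test on recovered reads called 5 windows of the stretch from INT1 (41 of all 192) and 0 from INT2 (1 of all 193). From TEA 0 of 10 windows passed (2.56% of all 195), with 4 at an unadjusted p under 0.05 (45 of all 195), and the same window had the smallest adjusted p among them, at 0.105 (log2 change 2.11, SE 0.55). From Ed 0 of the 8 windows tested passed (0% of all 143), with 2 at an unadjusted p under 0.05 (20 of all 143), and edgeR called 0.

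**Figure D4:**
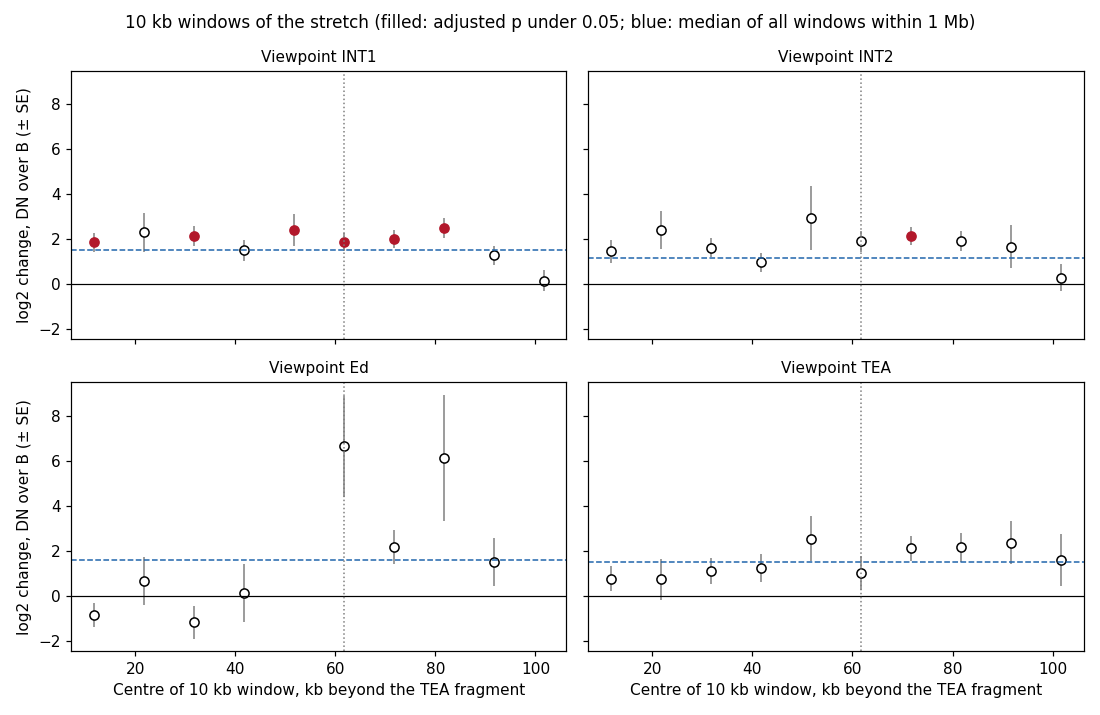
Fitted log2 change, DN over B, with its SE, for each tested 10 kb window of the stretch, against the distance of its centre from the TEA fragment in kb, with 1 panel per viewpoint. Filled points passed an adjusted p of 0.05 (6 from INT1, 1 from INT2), the blue dashed line is the median of all windows within 1 Mb (1.52, 1.19, 1.60 and 1.50 from INT1, INT2, Ed and TEA), and the dotted line is the segment boundary.

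The median log2 change of the windows of the stretch was 1.94 from INT1, 1.79 from INT2, 1.08 from Ed and 1.42 from TEA, and over all windows within 1 Mb it was 1.52, 1.19, 1.60 and 1.50. With library size within 1 Mb those medians of all windows moved to 0.73, -0.09, 0.88 and -0.11, and the medians of the stretch to 1.15, 0.38, 0.36 and -0.22. The calls were then 1 from INT1, the window at 54.85 to 54.86 Mb, and 0 from INT2, and with TMM factors they were 0 from both. Without DN replicate 1, or without DN replicate 2, 0 windows of the stretch passed from INT1, without B replicate 1 there were 2 and without B replicate 2 there was 1. From INT2, 0 passed without any one of the 4.

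How the stretch compared with DNA at the same distances on the lower-coordinate side of each viewpoint was also measured, as the ratio of reads on a segment to reads on the mirrored interval. From INT1 the Jα segment had 0.842 and 1.22 times the reads of its mirror in DN and 4.17 and 2.32 times in B. The Trac to Dad1 segment had 1.23 and 1.36 times in DN and 6.24 and 3.56 times in B. From INT2 the ratios were 2.59 and 1.48 in DN and 6.18 and 4.38 in B for the Jα segment, and 2.12 and 1.15 in DN and 4.04 and 4.85 in B for the Trac to Dad1 segment. Every B library had a higher ratio than every DN library for both segments from both INT viewpoints. The segments themselves had larger shares in DN, as given above, and so did the mirrored intervals. For the Jα segment the mirror held 3.46% and 4.15% of chromosome 14 reads in DN and 0.278% and 0.374% in B from INT1. From INT2 it held 2.63% and 2.96% in DN and 0.254% and 0.296% in B. For the Trac to Dad1 segment the mirror from INT1 held 2.47% and 3.11% in DN and 0.162% and 0.337% in B.

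From TEA and Ed the mirrored intervals of the Trac to Dad1 segment hold the INT1 and INT2 fragments. Those of the Jα segment lie nearer to the viewpoint and do not reach them, and the one from TEA holds the Ed fragment. The Jα segment had 0.195 and 0.169 times the reads of its mirror from TEA in DN and 0.332 and 0.407 times in B, and 0.159 and 0.0421 against 0.327 and 0.453 from Ed. The Trac to Dad1 segment had 0.222 and 0.195 times in DN and 0.218 and 0.210 times in B from TEA (exact permutation p = 1). From Ed it had 1.74 and 1.98 times in DN and 1.73 and 0.595 times in B. Apart from the Trac to Dad1 segment from TEA, the cell types did not overlap in any of these ratios, each at an exact permutation p of 0.333, the smallest possible. For the Trac to Dad1 segment from Ed, DN replicate 1 and B replicate 1 almost met, at 1.743 and 1.732. DN was the higher there, whereas B was the higher in the Jα ratios. The mirrored intervals again held larger shares in DN. For the Jα segment the mirror held 12.4% and 15.0% in DN and 3.90% and 3.01% in B from TEA. From Ed it held 11.8% and 30.6% in DN and 6.89% and 4.70% in B. For the Trac to Dad1 segment it held 10.4% and 15.9% against 2.87% and 3.17% from TEA. From Ed that mirror held 0.818% and 1.03% in DN and 0.262% and 0.409% in B.

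**Figure D5:**
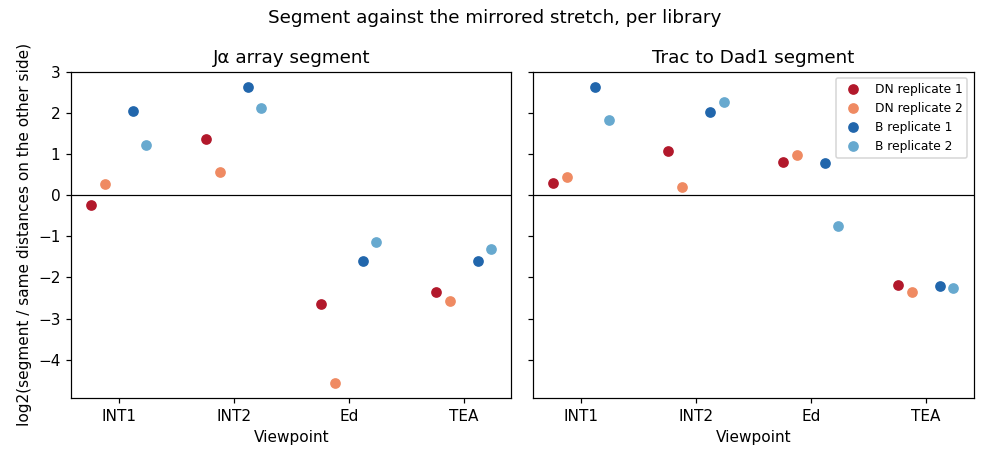
Log2 of the ratio of reads on each segment to reads at the same distances on the other side of the viewpoint, for the Jα array segment (left) and the Trac to Dad1 segment (right), with 1 point per library. Points above 0 mean more reads on the stretch than on its mirror: the B libraries stand at 4.17 and 2.32 times and the DN libraries at 0.842 and 1.22 times for the Jα segment from INT1. That mirror held 3.46% and 4.15% of chromosome 14 reads in DN and 0.278% and 0.374% in B.

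The capture of fragments was dense from the distant viewpoints and sparse from Ed. In DN, INT1 captured 41 of 41 fragments in both libraries and INT2 40 of 41, and in B they captured 36 and 35, and 31 and 35. TEA captured 36 of 40 in both DN libraries and 31 and 33 in B. Ed captured 19 and 34 in DN and 15 and 20 in B. The 4 fragments that TEA never captured (15, 23, 32 and 37) have 569, 70, 91 and 319 bp and were never captured from Ed either, while INT1 read all 4 in DN. Fragment 19, of 4694 bp, was at 0 in every INT2 library and held 167 and 79.3 RPM of chromosome 14 in DN and 0 in B from INT1.

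The order of levels over fragments 2 to 41, with fragments not captured at 0, was most alike between the INT viewpoints, with a Spearman's rho of 0.83 in DN and 0.75 in B. It was 0.71 in DN and 0.64 in B between INT1 and TEA, and 0.53 in DN and 0.52 in B between Ed and TEA. Longer fragments had higher levels, with a rho between 0.33 and 0.67 across the viewpoints in DN and between 0.49 and 0.68 in B. Fragments are not independent replicates, and the levels share fragment length, so these are descriptions. Replicates correlated at 0.76 to 0.86 in DN and at 0.36 to 0.73 in B, with the lowest from INT2 in B.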

How the data were processed

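Each of 16 libraries (4 viewpoints, 2 cell types, 2 samples) was deposited as a table of HindIII fragments (mm9) with RPM, reads scaled to all mapped reads of the library, made by the authors, per the file headers and values. CASAVA and Bowtie are named in the submitters' processing notes, with versions not given in the sources used here. Absent fragments were taken as 0. The viewpoint fragment and 1 neighbour on each side were left out, and values rescaled to the remaining reads of chromosome 14. All values were whole reads within 0.01 read. log2(RPM of chromosome 14 + 1) was tested with limma 3.58.1 (trend, two-sided, Benjamini-Hochberg) in R 4.3.3 over all fragments or 10 kb windows within 1 Mb with a mean of at least 20, and folds are on that scale for windows. Recovered reads were tested with edgeR 4.0.16 for 3 viewpoints, and not for TEA. Scripts were tested on simulated data. Segment shares used exact permutation tests. The text names, per viewpoint, the 3 fragments of each segment with the highest mean and every called window. The members and lists were chosen with earlier results of these data known. The authors' 8 mean tables were not used. Deviations of same-numbered samples had correlations between -0.07 and 0.10 over fragments or windows. Such values cannot exclude pairing, and the main fits were unpaired. Alternatives are in the closing section.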

Additional observations from a re-analysis of the deposited data

How the results depend on the processing

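Counts of calls in this section are for the stretch alone, without the share over all fragments or windows. They therefore do not show how the stretch compares with the other fragments or windows near a viewpoint. With all mapped reads as library size, calls in the stretch were 15 fragments from INT1 and 2 from INT2. Windows called were 9 from INT1, 7 from INT2 and 4 from TEA. The median log2 change over all windows was also higher in this setting, at 2.47 from INT1, 2.13 from INT2 and 2.87 from TEA. With library size within 1 Mb, 1 window was called from INT1 and 0 from INT2, and with TMM factors or without a trend 0 from each. Without a trend 2 fragments were called from INT1 and 1 from TEA. edgeR called 0 windows from INT2. The replicate block, in which equal numbers were taken as pairs though pairing was not established, gave 8 windows from INT1 and 3 from INT2. It gave 1 window from Ed and 3 from TEA, and 0 fragments. Leaving out 1 library gave 0 to 2 windows from INT1 and 0 from INT2, and 0 to 1 fragments from INT1, INT2 and TEA and 0 to 3 from Ed. Such fits leave 1 sample in a group. In most of those fragment calls, as in most over all fragments tested, the remaining pair was at 0. The calls are therefore not particular to the stretch. The log2 ratios of the Jα segment with all mapped reads, within 1 Mb and in excess of other chromosomes were 3.24, 1.15 and 1.29 from INT1, 3.06, 0.58 and 1.03 from INT2, 0.47, -1.19 and -1.09 from Ed, and 2.64, -0.65 and -0.18 from TEA. Those of the Trac to Dad1 segment were 2.94, 0.90 and 1.04 from INT1, 2.77, 0.22 and 0.68 from INT2, and 3.79, 0.42 and 0.91 from TEA, and from Ed 3.33 with all mapped reads and 1.57 within 1 Mb. Capped at the 95th percentile, the Jα segment gave 0.32 from Ed and 1.52 from TEA, and the Trac to Dad1 segment 2.41 from TEA. Without its highest fragment, an alternative chosen after seeing the data, the Jα segment gave 1.12 from TEA and -0.12 from Ed. The division gave 4.40 points from Ed with each captured fragment counted once, and from TEA -0.61 so counted, 10.8 with the boundary 10 kb lower and 5.93 with it 10 kb higher. Named fragments changed sign within 1 Mb at fragment 6 from INT2 (-0.71) and TEA (-1.49), fragment 25 from INT2 (-0.12) and fragment 17 from TEA (-0.90). With TMM they did so at fragment 17 from INT1 (-0.37) and TEA (-0.77) and fragment 6 from INT2 (-0.46) and TEA (-1.35). Fragment 1 from Ed gave 0.68 with all mapped reads, and with 1 library left out, fragment 6 from TEA ranged from -0.33 (without DN replicate 1) to 0.63 (without DN replicate 2), with -0.08 without B replicate 1. The cause was not tested. With 2 samples a group, segment shares cannot pass 0.05.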
